A study of Mus musculus with 6 samples.

Results

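The genes described here are 38 genes of cholesterol synthesis and lipid handling, chosen by name from a list of the pathway and its regulators. All 38 matched an Ensembl gene among the 32285 features of the deposited count table, and all 38 were among the 12568 genes with enough reads to be tested. They were grouped by role into the mevalonate arm of cholesterol synthesis (7 genes), the sterol arm (11), sterol sensing and transport (3), LXR and efflux (7), fatty acid synthesis (4), and uptake, storage and oxidation (6). The question asked of them was whether the synthesis genes and the efflux and storage genes moved, in the same or in opposite directions, when Vps33b was deleted.

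The data are bulk RNA-seq of cDC1s (type 1 conventional dendritic cells, which excel at showing captured antigen to CD8 T cells), obtained by cell sorting from the mLN of C57BL/6 mice. Libraries came from wild-type mice (WT, 3 libraries) and from mice of the genotype Vps33BdeltaDC, a conditional deletion of Vps33b (KO, 3 libraries). WT and KO mice alike had received 50 µg of HDM through the nose and were sampled 24 h later, so no unexposed group enters the comparison. The sources used here do not name the Cre driver of the deletion, the exons removed, the age of the mice or any pooling. They also do not say whether each library was a different animal, and the p-values below therefore measure the spread between these libraries, which may be technical. Library totals ran from 11755944 to 18450678 counts. Vps33b itself was at 16.2, 19.1 and 13.8 CPM (read counts scaled to library depth) in WT replicates 1, 2 and 3 and at most at 8.29 CPM in a KO library, with means of 16.4 ± 2.69 and 6.77 ± 1.66 CPM (SD, n = 3 each). Every KO value lay below every WT value. The log2 fold change of -1.28 ± 0.27 (SE) had an adjusted p of 0.834 by edgeR, so the deleted gene did not pass the test either. All 13 cDC1 markers were detected, and summed to between 3997 and 4461 CPM in the 6 libraries. Irf8, Id2 and Flt3 carried most of this sum. Of the log2 fold changes of the markers, 4 lay above 0 and 9 below, with a median of -0.20. Xcr1 (13.1 to 44.6 CPM in WT, 5.72 to 11.4 CPM in KO) and Wdfy4 (66.9 to 111 and 33.3 to 58.3 CPM) were lower in KO without overlap. Snx22 (15.6 to 21.4 and 22.7 to 25.9 CPM) was higher without overlap. Groups did not overlap for 10.6% of all genes tested.

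Cells make cholesterol from acetyl-CoA through the mevalonate arm, which ends in farnesyl diphosphate, and the sterol arm, which joins farnesyl units into squalene, folds squalene into a ring and trims the ring to cholesterol. When sterol in the endoplasmic reticulum is low, the transcription factor SREBP2 is released to the nucleus and switches on nearly all of these enzymes together, and INSIG1 holds it back when sterol is plentiful. When sterol is in excess, oxysterols activate the liver X receptors (LXR), which switch on the exporters ABCA1 and ABCG1, apolipoprotein E and the enzymes of fatty acid desaturation. VPS33B acts in the traffic of late endosomes and lysosomes, the compartments through which cholesterol taken up by a cell passes.

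None of the 38 genes differed between KO and WT by the test used. The edgeR quasi-likelihood test with Benjamini-Hochberg adjustment over 12568 genes gave 0 members with an adjusted p under 0.05, against 0 of all genes tested (0%), and the lowest adjusted p of a member was 0.834. At an unadjusted p under 0.05 there was 1 member, Cd36, where all genes gave 725 (5.77%). The WT and KO values did not overlap for 1 member, Srebf1, against 10.6% of all genes tested. DESeq2 called 10 of 12568 genes (0.0796%) and limma-voom 0, and no member was among them. Of the 38 log2 fold changes, 18 lay above 0 and 20 below, where all genes gave 50.6% above and 49.4% below. Their median was -0.02, beside 0.00 over all genes. With 3 libraries a group, a missed threshold does not show that a gene was equal in both.

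**Figure D1:**
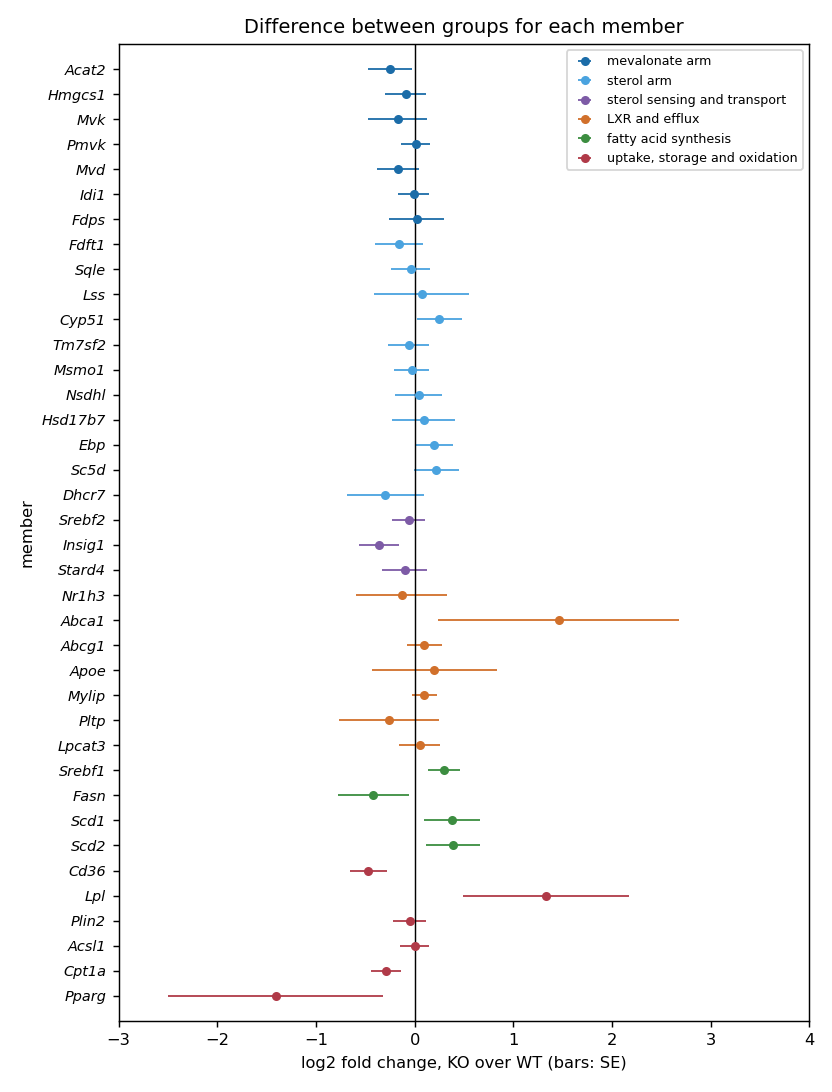
Log2 fold change of each member, KO over WT, from the edgeR fit (points) with its SE (bars), coloured by role group. Most members lie within 0.5 of 0, and the widest bars are those of Abca1, Pparg, Lpl and Apoe.

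The synthesis enzymes had nearly the same mean level in both groups and differed more between libraries of one group. The 18 enzymes of both arms summed to 1394, 1489 and 1930.1 CPM in WT replicates 1, 2 and 3 and to 1329.9, 1446 and 2032 CPM in KO replicates 1, 2 and 3. WT replicate 3 and KO replicate 3 were the highest, and the other 4 libraries lay below both. Their mean was 1604 ± 286 CPM for WT and 1602 ± 376 CPM for KO (SD, n = 3 each). Of the 18 log2 fold changes 8 lay above 0 and 10 below, with a median of -0.02 and a range from -0.30 to 0.25. Its direction changed with the library left out: the median was -0.24 when KO replicate 3 was dropped, -0.17 when WT replicate 1 was, 0.12 when WT replicate 3 was and 0.09 when KO replicate 1 was.

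The same 2 libraries were the highest for most enzymes taken singly. WT replicate 3 and KO replicate 3 held the 2 highest values for 11 of the 18 enzymes (61.1%), a pattern found in 899 of the 12568 genes tested (7.15%). Over all genes, the share for a pair of libraries ran from 3.83% to 13.6%. The highest value of an enzyme was in KO replicate 3 for 9, in WT replicate 3 for 8 and in WT replicate 2 for 1. The lowest was in KO replicate 1 for 8 and in WT replicate 1 for 6. This count was made after the values were seen, and it describes these libraries only. KO replicate 3 had the fewest counts of the 6 libraries and WT replicate 3 the most. With offsets for gene length and GC content, the mean centred log2 level of the 18 enzymes was 0.35 in WT replicate 3 and 0.38 in KO replicate 3, and between -0.32 and -0.06 in the other libraries. Summed monocyte and macrophage markers were at 767 CPM in KO replicate 3 and at 241 CPM in WT replicate 3, the latter below WT replicate 1 (425 CPM). The part in the pattern of depth, of length and GC content, of these markers and of anything shared by libraries of the same replicate number was not tested.

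**Figure D2:**
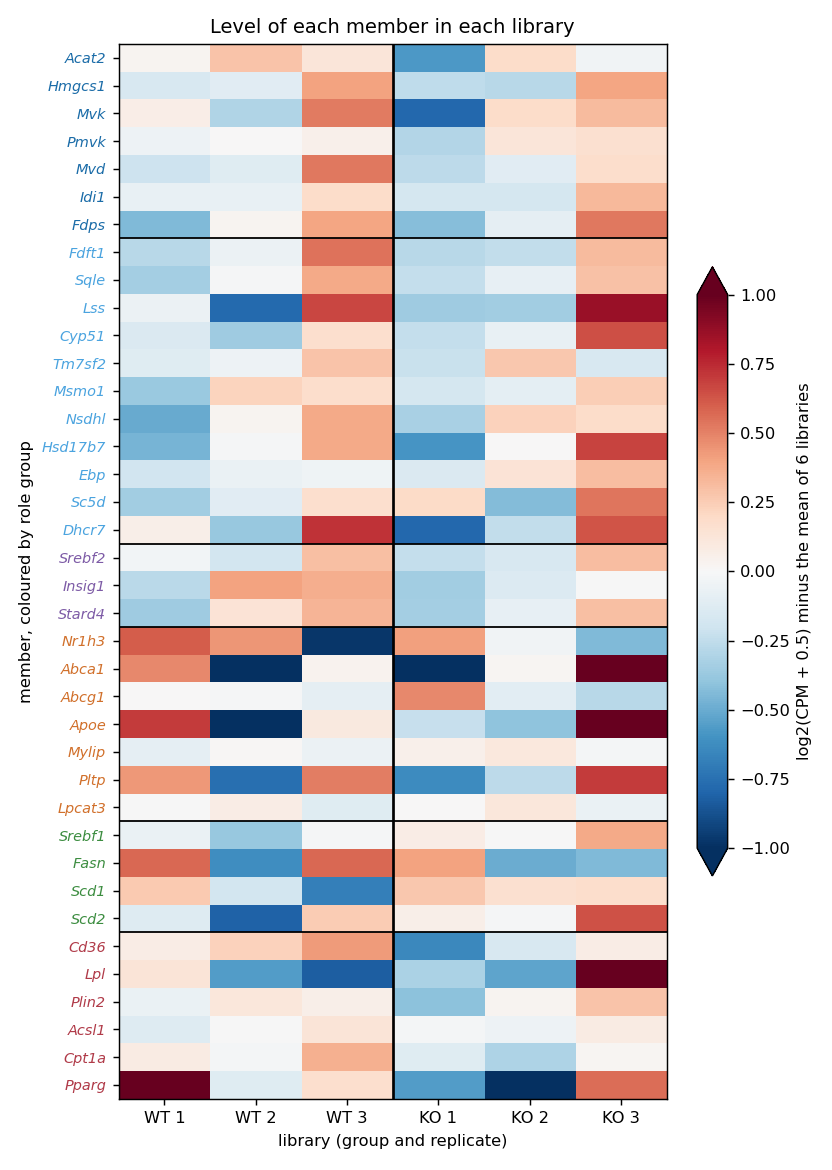
Level of each of the 38 members in each library, as log2(CPM + 0.5) minus the mean of the 6 libraries (red above, blue below, colours end at 1 in either direction). Within the mevalonate and sterol arms, the columns of WT replicate 3 and KO replicate 3 are red in most rows.

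In the mevalonate arm, 2 of 7 members lay above 0 and 5 below, with a median log2 fold change of -0.09. Dropping WT replicate 3 turned this median to 0.08, dropping KO replicate 1 turned it to 0.07, and dropping KO replicate 3 gave -0.29. Idi1, the isomerase that makes the activated isoprene unit, had the highest level for its length of all 38 members, at 148 RPKM (CPM per kilobase of exon) in WT and 147 in KO. Its log2 fold change was -0.01 ± 0.16 (SE). Hmgcs1 (ENSMUSG00000093930, chromosome 13, 119690379 to 119708260 in mm10) encodes HMG-CoA synthase, which commits acetyl units to the pathway. It was at 149, 154 and 220.2 CPM in WT and 139, 137 and 219 CPM in KO, in replicate order. WT replicate 3 and KO replicate 3 stood above the rest, and the log2 fold change was -0.09 ± 0.21. Acat2, the thiolase at the entry of the pathway, was at 24.0, 28.7 and 25.6 CPM in WT and 15.6, 26.7 and 22.9 CPM in KO. It had the lowest log2 fold change of this arm, -0.25 ± 0.22, and the low value was that of KO replicate 1. Fdps, which makes farnesyl diphosphate, was at 72.8, 101 and 130.4 CPM in WT and 73.8, 93.3 and 143 CPM in KO. Its spread within each group was far wider than the difference of 0.02 ± 0.28 between them. The kinases Mvk (-0.17 ± 0.30) and Pmvk (0.01 ± 0.15) and the decarboxylase Mvd (-0.17 ± 0.21) differed by less than 1 SE.

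In the sterol arm, 6 of 11 members lay above 0 and 5 below, with a median of 0.04. This median turned to -0.17 when KO replicate 3 was dropped and to -0.14 when WT replicate 1 was, and it was 0.24 when WT replicate 3 was dropped and 0.18 when KO replicate 1 was. Cyp51, the lanosterol demethylase, had the highest log2 fold change, 0.25 ± 0.23, with 112, 96.6 and 139.7 CPM in WT and 105, 118 and 194 CPM in KO. The value of KO replicate 3 was the highest, and without that library the log2 fold change was -0.07. Dhcr7, whose product makes the last reduction to cholesterol, had the lowest, -0.30 ± 0.39, with 9.89, 7.17 and 15.9 CPM in WT and 5.29, 7.88 and 14.9 CPM in KO. Lss, the cyclase that closes the sterol ring, varied most between libraries in this arm. It was at 30.2, 18.2 and 50.5 CPM in WT and 24.5, 24.7 and 57.9 CPM in KO, 3.18-fold from lowest to highest, with a log2 fold change of 0.07 ± 0.48. Sqle, the squalene epoxidase that takes the first oxygen-dependent step, was at 75.2, 94.7 and 124 CPM in WT and 80.6, 89.8 and 117 CPM in KO (-0.04 ± 0.20). The remaining sterol-arm genes, Fdft1, Tm7sf2, Msmo1, Nsdhl, Hsd17b7, Ebp and Sc5d, had log2 fold changes from -0.16 (Fdft1) to 0.22 (Sc5d). Exons of Fdft1, which encodes squalene synthase, share 18.3% of their bases with Ctsb on the opposite strand, a gene with 91264 counts over the libraries against 10289 for Fdft1. The sources used here do not name the strand setting of the counting, so the count of Fdft1 is uncertain. Exons of Tm7sf2 share 12.1% with Vps51 on the same strand, so the count of Tm7sf2 is uncertain whatever that setting was. The same applies to Fdps of the mevalonate arm, whose exons share 26.7% with Gm43738 on the same strand, a gene with 0 counts. On the opposite strand, exons of Cyp51 share 3.8% with Akap9, and those of Lpcat3 share 10.2% with Emg1. Exons of Hmgcs1, Idi1, Lss, Nr1h3, Srebf1, Scd2 and Acsl1 also overlap another gene.

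The promoters of the synthesis genes carry shared letters, and 3 are printed as examples, chosen after the values were seen. Hmgcs1 and Mvd had their 2 highest values in WT replicate 3 and KO replicate 3, and Sc5d did not. Each is the 250 bases before the transcription start from RefSeq (GRCm38.p6, the build also called mm10), 5′ to 3′ on the strand of the gene. Capitals mark the sterol regulatory element core TCACNCCAC, bound by SREBPs, and the NF-Y box CCAAT, bound by the SREBP partner NF-Y, on either strand (ATTGG is CCAAT read on the other strand).
Hmgcs1, chr13:119690101-119690350, plus strand: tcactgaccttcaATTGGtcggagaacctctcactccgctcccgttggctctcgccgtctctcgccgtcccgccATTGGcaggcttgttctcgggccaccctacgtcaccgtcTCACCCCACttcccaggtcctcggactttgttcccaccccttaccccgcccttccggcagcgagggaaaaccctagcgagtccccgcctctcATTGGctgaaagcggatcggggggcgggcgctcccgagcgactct
Mvd, chr8:122443423-122443672, minus strand: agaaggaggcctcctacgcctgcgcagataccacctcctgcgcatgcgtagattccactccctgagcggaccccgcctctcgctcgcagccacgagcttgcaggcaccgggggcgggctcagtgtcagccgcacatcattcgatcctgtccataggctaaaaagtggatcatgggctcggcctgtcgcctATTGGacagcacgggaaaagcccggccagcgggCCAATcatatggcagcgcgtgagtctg
Sc5d, chr9:42264301-42264550, minus strand: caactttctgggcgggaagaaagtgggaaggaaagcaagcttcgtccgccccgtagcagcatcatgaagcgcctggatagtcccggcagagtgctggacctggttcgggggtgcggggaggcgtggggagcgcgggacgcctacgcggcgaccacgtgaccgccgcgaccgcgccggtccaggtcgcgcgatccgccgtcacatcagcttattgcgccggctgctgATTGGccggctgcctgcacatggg
The Hmgcs1 stretch holds 1 sterol regulatory element core, from 137 to 129 bases before the start, and 3 NF-Y boxes, that of Mvd holds 2 NF-Y boxes, and that of Sc5d holds 1. The Sc5d stretch also holds CACGTG, not marked, from 98 to 93 bases before the start, and those of Hmgcs1 and Mvd do not. Box counts overlapped between enzymes with and without WT replicate 3 and KO replicate 3 highest. Of other enzymes with that pair highest, Cyp51 and Lss had 1 NF-Y box each and Mvk had 5. Of those without it, Acat2 had 0 and Msmo1 had 3.

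Promoters of this table were found for 30 of the 38 members and for 15 of the 18 synthesis enzymes. At least 1 CCAAT on either strand was found for 14 of the 15 enzymes (93.3%), against 40.7% of 9693 tested genes with a promoter in the table. GGGCGG, the GC box bound by SP1, was found for 14 of 15 (93.3%), against 62.7% of tested genes. The core TCACNCCAC was found for 1 of 15 (6.67%, Hmgcs1), against 1.24% of tested genes, and for Acsl1 among the other members. CACGTG, the E-box that SREBPs can also bind, was found for 3 of 15 (20.0%), against 9.75%. The DR4 repeat in its ideal form, the LXR element, was found in 0 of the 30 members and in 0 of the tested genes. Both strands were searched, each motif was counted on its own, so that matches of different motifs may share letters, and a gene counts once if any of its starts has a match. Parts of some windows lie in annotated exons of that or another gene. These were all 250 bases for Idi1, for Tm7sf2 and for some starts of Dhcr7, and 214 bases for Msmo1. The 3 printed windows hold 0 such bases, and this overlap was not computed for the tested genes. These shares describe letters in a window, not binding.

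Among the 3 genes of sterol sensing and transport, Srebf2 and Stard4 had their 2 highest values in WT replicate 3 and KO replicate 3, and Insig1 did not. Srebf2 (ENSMUSG00000022463, chromosome 15, 82147181 to 82205379), which encodes SREBP2, had the second highest level for its length, 63.9 RPKM in WT and 61.6 in KO. It was at 436, 393 and 549.8 CPM in WT and 377, 399.6 and 550.4 CPM in KO, highest in WT replicate 3 and KO replicate 3. Its log2 fold change was -0.06 ± 0.17, and 0.11 with offsets for length and GC content. Insig1, the brake on SREBP release and itself a target of SREBP2, was at 33.8, 54.0 and 52.7 CPM in WT and 31.9, 37.1 and 40.7 CPM in KO. Its log2 fold change of -0.36 ± 0.20 was the lowest of the synthesis and sensing genes, with an adjusted p of 0.836, and the WT and KO values overlapped through WT replicate 1. Stard4, a carrier of cholesterol between membranes, had a log2 fold change of -0.10 ± 0.23. All 3 lay below 0, with a median of -0.10, which turned to 0.07 with WT replicate 3 left out and to 0.04 with KO replicate 1 left out.

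**Figure D3:**
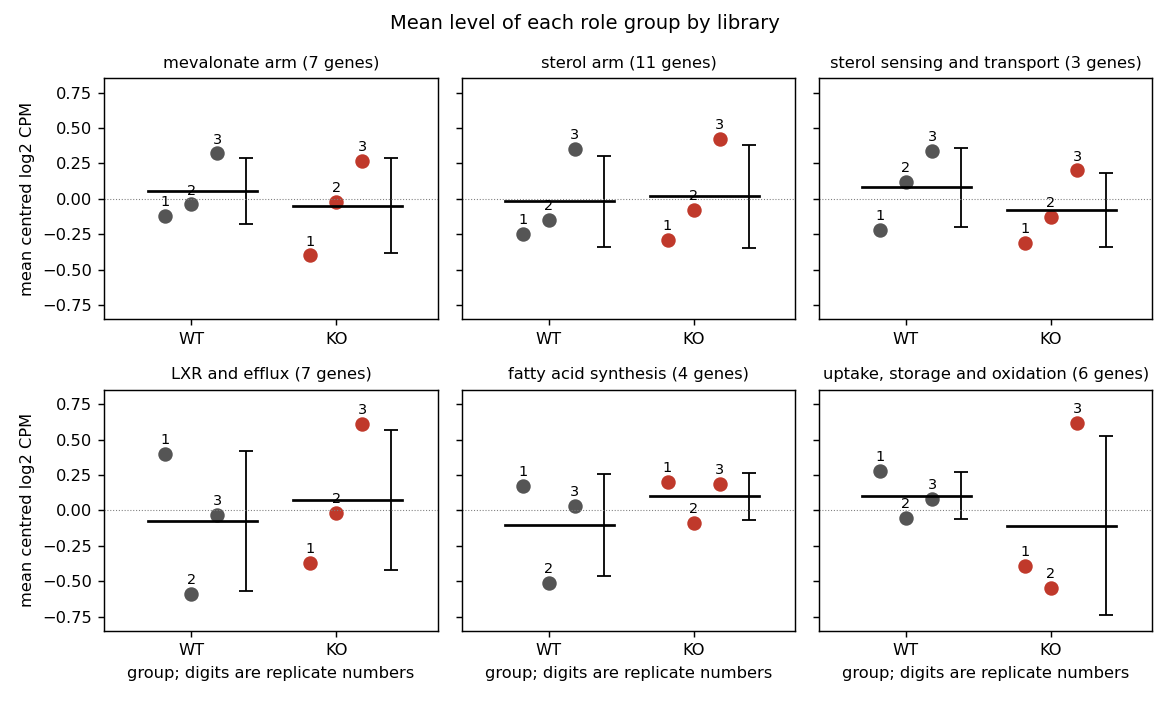
Mean centred log2 CPM of each role group by library (points, with the replicate number), with the group mean (line) and its SD (bar, n = 3). In the 3 panels of cholesterol synthesis and sensing, replicate 3 is the highest point of both groups, and in the panels of LXR and of uptake WT replicate 1 and KO replicate 3 are high.

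The LXR and efflux genes had a median log2 fold change of 0.10, with 5 of 7 above 0, and summed to 317 ± 32.1 CPM for WT and 345 ± 42.6 CPM for KO (SD, n = 3 each). Abcg1, which exports cholesterol to high-density lipoprotein, made up most of this sum. It was at 182, 180.2 and 171 CPM in WT and 253, 169 and 149.8 CPM in KO, with the highest and the lowest of the 6 values both in KO (0.10 ± 0.18). Abca1, the other exporter, was nearly absent, with 27, 0 and 18 counts across WT replicates and 0, 16 and 83 across KO replicates. Its log2 fold change of 1.46 ± 1.22 rested on KO replicate 3 and was -0.74 without it. Mylip, the ubiquitin ligase that removes lipoprotein receptors, varied least of all members, from 60.5 to 69.3 CPM (0.10 ± 0.13). Lpcat3, which puts polyunsaturated chains into phospholipids, varied 1.19-fold from lowest to highest (0.05 ± 0.21). Nr1h3, which encodes LXR-alpha, was at 7.47, 6.63 and 2.17 CPM in WT and 6.45, 4.61 and 3.35 CPM in KO (-0.13 ± 0.46).

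Apoe, Lpl, Abca1 and Pparg had their 2 highest values in WT replicate 1 and KO replicate 3, the libraries with the highest sum of monocyte and macrophage markers. Of 38 members these 4 (10.5%) had this pair highest, beside 758 of all genes tested (6.03%). A count of 4 is small and is not read as a result about the members. The ranks of Abca1 and Pparg rest on few reads. Abca1 had 27 counts in WT replicate 1 and 18 in WT replicate 3, and Pparg had 12 in KO replicate 3 and 13 in WT replicate 3. Apoe (ENSMUSG00000002985, chromosome 7, 19696109 to 19699188), the lipid carrier secreted by macrophages, was at 82.7, 21.7 and 54.5 CPM in WT and 43.2, 38.4 and 105 CPM in KO. Its highest values were in KO replicate 3 and WT replicate 1, and its log2 fold change of 0.20 ± 0.63 turned to -0.40 when KO replicate 3 was dropped and to -0.17 when WT replicate 2 was. Lpl, the lipase that frees fatty acids from lipoproteins, was at 3.13, 1.76 and 1.38 CPM in WT and 2.17, 1.81 and 13.8 CPM in KO. Its log2 fold change of 1.33 ± 0.84 was -0.09 without KO replicate 3. Pltp, a phospholipid transfer protein whose exons share 19.3% of their bases with Ctsa on the opposite strand, was at 4.18, 1.56 and 4.45 CPM in WT and 1.74, 2.39 and 5.12 CPM in KO (-0.26 ± 0.51). It was highest in KO replicate 3 too, but next in WT replicate 3. The 16 monocyte and macrophage markers summed to 425, 228 and 241 CPM in WT and to 206, 206 and 767 CPM in KO. Of these markers 15 reached 1 CPM in at least 1 library, and Lyz2 was the most abundant, at 468 CPM in KO replicate 3 and between 106 and 192 CPM elsewhere. Csf1r was at 52.6 CPM in WT replicate 1 and 48.8 CPM in KO replicate 3, and at most 22.7 CPM elsewhere. C1qb was at 29.1 and 46.9 CPM in those 2 libraries and at most 10.2 CPM elsewhere. Of the 16 markers 11 had their 2 highest values in that pair, and Cd14, Ly6c2, Ccr2, Marco and Siglecf did not. Cd14 was highest in WT replicate 2 (28.4 CPM, with 10.6 CPM in KO replicate 3), Ly6c2 was lowest in WT replicate 1 (2.97 CPM) and highest in KO replicate 1 (14.3 CPM), and Ccr2 (5.35 CPM) and Marco (9.85 CPM) were highest in WT replicate 3. The pair was not particular to this list. WT replicate 1 and KO replicate 3 also had the highest sums of markers of type 2 conventional dendritic cells (cDC2), 307 and 309 CPM, with at most 266 CPM elsewhere. The same held for stroma and epithelium markers, at 21.7 and 36.2 CPM, with at most 19.1 CPM elsewhere. It did not hold for the cDC1, pDC, B and plasma, T and NK or granulocyte lists. In sorted bulk samples, more cells of a type and more RNA per cell cannot be told apart. The part of any of these marker lists in the levels of Apoe, Lpl, Abca1, Pltp and Pparg was not tested.

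**Figure D4:**
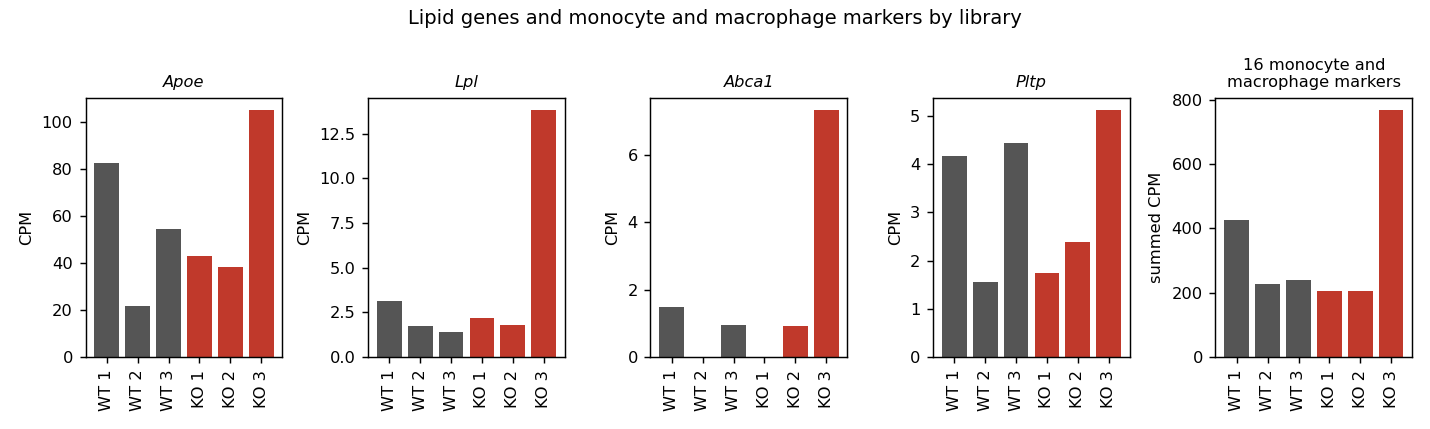
CPM of Apoe, Lpl, Abca1 and Pltp, and the summed CPM of 16 monocyte and macrophage markers, in each library (grey WT, red KO). KO replicate 3 is the highest bar of all 5 panels, and WT replicate 1 the next highest in all but Pltp.

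Fatty acid synthesis had the highest median log2 fold change of the role groups, 0.34, from 4 genes of which 3 lay above 0. Srebf1 (ENSMUSG00000020538, chromosome 11, 60199089 to 60222581), which encodes the SREBP1 factors of fatty acid synthesis and is an LXR target, was at 59.8, 47.9 and 62.2 CPM in WT and 65.9, 62.4 and 81.7 CPM in KO. Every KO value lay above every WT value, the nearest pair being 62.4 and 62.2 CPM, and the log2 fold change was 0.30 ± 0.16 with an adjusted p of 0.834. Non-overlap in this direction was found for 5.46% of all genes tested. With length and GC offsets the log2 fold change of Srebf1 was 0.45 ± 0.14, where the median over all genes was 0.05. Its unadjusted edgeR p was then under 0.05, with an adjusted p of 0.777. Scd2, a stearoyl-CoA desaturase, was at 25.3, 15.6 and 33.1 CPM in WT and 28.8, 27.4 and 43.3 CPM in KO (0.39 ± 0.27). Its paralog Scd1 was at 13.1, 9.47 and 6.56 CPM in WT and 13.2, 12.2 and 12.3 CPM in KO (0.38 ± 0.28), and since the handling of reads that match both paralogs is not named, the split between them may be uncertain. Fasn, the fatty acid synthase, went the other way, at 44.0, 18.9 and 44.0 CPM in WT and 38.9, 20.6 and 21.5 CPM in KO (-0.42 ± 0.36). Fasn ranged from -0.78 (without KO replicate 1) to -0.24 (without WT replicate 1 or 3) with a library left out, and was -0.22 with length and GC offsets. Scd1 ranged from 0.14 (without WT replicate 3) to 0.67 (without WT replicate 1), and Scd2 from 0.16 (without WT replicate 2 or KO replicate 3) to 0.66 (without WT replicate 3). The groups overlapped for Scd1, Scd2 and Fasn, and the adjusted p of each was 0.853 or more. The median of the 4 genes was 0.17 without WT replicate 2 and also 0.17 without KO replicate 3, and it was 0.43 with length and GC offsets.

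The genes of uptake, storage and oxidation had a median log2 fold change of -0.17, with 4 of 6 below 0. Cd36 (ENSMUSG00000002944, chromosome 5, 17781690 to 17888801), a scavenger receptor that takes up fatty acids and oxidised lipoprotein, was at 63.7, 71.4 and 81.4 CPM in WT and 38.7, 54.2 and 63.9 CPM in KO. WT replicate 1 lay just below KO replicate 3, the means were 72.2 ± 8.86 and 52.3 ± 12.7 CPM (SD, n = 3 each), and the log2 fold change was -0.47 ± 0.19. It was the 1 member with an unadjusted p under 0.05, its adjusted p by edgeR was 0.834. Leaving out KO replicate 1 (-0.30) or WT replicate 3 (-0.37) took it above that unadjusted threshold. An unadjusted p under 0.05 with a lower value in KO was found for 3.06% of all genes tested. Cpt1a, which carries fatty acids into mitochondria for oxidation, was at 89.7, 83.3 and 108 CPM in WT and 77.6, 68.0 and 85.5 CPM in KO (-0.29 ± 0.15). Plin2, the coat protein of lipid droplets, was at 96.7, 109 and 105 CPM in WT and 75.7, 103 and 123 CPM in KO (-0.05 ± 0.17). Acsl1, which activates long-chain fatty acids, varied from 38.6 to 46.3 CPM (0.00 ± 0.15). Pparg, the lipid-sensing receptor of fat cells and alveolar macrophages, had 30, 7 and 13 counts across WT replicates and 3, 0 and 12 across KO replicates, too few for its log2 fold change of -1.41 ± 1.09 to be read.

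**Figure D5:**
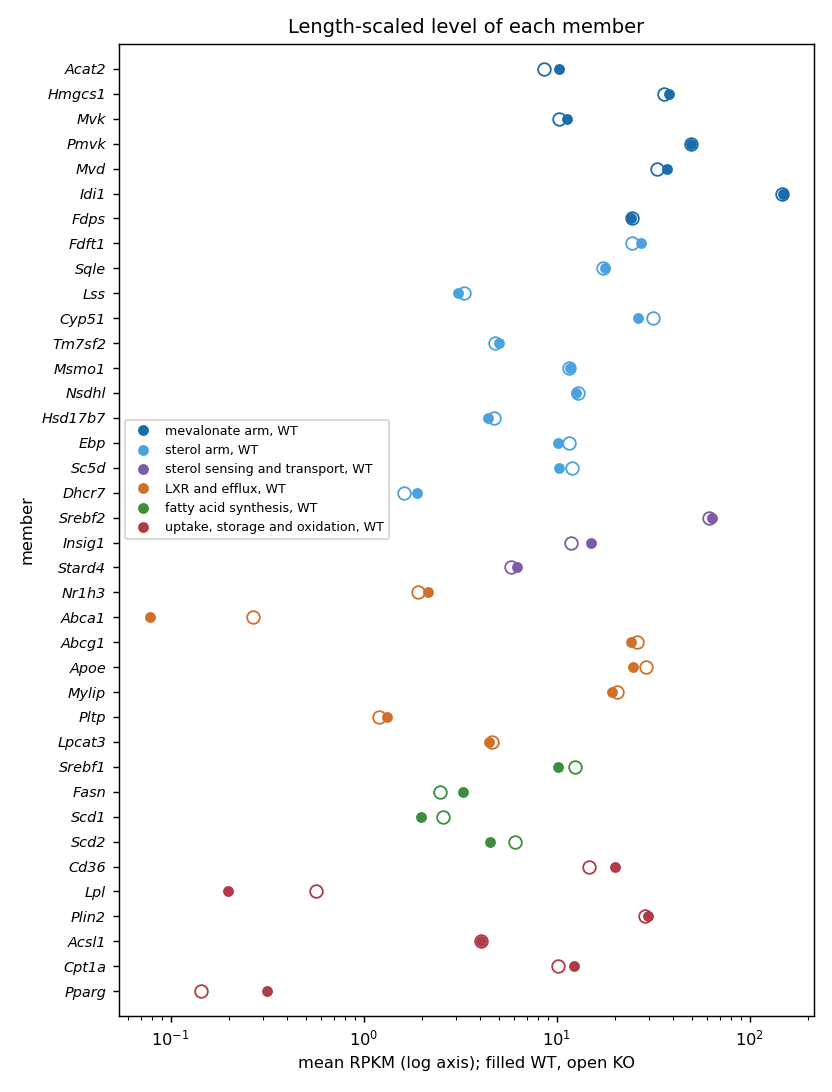
Mean level of each member per kilobase of exon (RPKM, log axis) in WT (filled) and KO (open), coloured by role group. Idi1 and Srebf2 are the highest, Abca1, Lpl and Pparg the lowest, and the WT and KO points of most members lie on each other.

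Set against each other, synthesis and the LXR and storage genes gave the same mean in both groups, with a wide spread. Per library, the mean centred log2 CPM of the 18 synthesis enzymes minus that of the 13 genes of LXR and efflux and of uptake, storage and oxidation was -0.55, 0.23 and 0.32 in WT and 0.04, 0.21 and -0.25 in KO. The WT libraries held both the lowest and the highest value. The means were 0.00 ± 0.48 in WT and 0.00 ± 0.23 in KO (SD, n = 3 each), a difference of 0.00. That difference ranged from -0.28 to 0.15 when each library was left out in turn, -0.28 being the value without WT replicate 1. The 2 libraries with the most monocyte and macrophage markers, WT replicate 1 and KO replicate 3, had the 2 lowest values. These libraries also had the highest sums of cDC2 and of stroma and epithelium markers, and the part of any of these markers was not tested. With the genes under a mean of 5 CPM left out, the difference was 0.02. Neither side of this difference holds the genes of sterol sensing and transport or of fatty acid synthesis. The latter include the LXR target Srebf1 and the desaturases Scd1 and Scd2.

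Of 56 further genes of the 2 pathways fixed in lists, 52 could be tested, and none passed. Of 22 tested genes of sterol handling 0 were higher and 2 lower at an unadjusted p under 0.05, and of 30 of fatty acid handling 2 were higher and 2 lower, where all genes gave 2.71% higher and 3.06% lower. The medians were -0.01 and 0.01. Plin3, another lipid droplet coat protein, was at 91.9, 95.9 and 119 CPM in WT and 115, 144 and 152 CPM in KO (0.42 ± 0.15). Dgat1, which makes triglyceride for storage, was at 38.3, 36.1 and 43.4 CPM in WT and 30.5, 30.8 and 26.3 CPM in KO (-0.42 ± 0.16). Its groups did not overlap, with KO below WT, as was so for 5.19% of all genes tested. Dgat2, the other such enzyme, was at 2.53, 8.93 and 1.59 CPM in WT and 1.23, 0.701 and 1.59 CPM in KO (-1.86 ± 0.78), a difference carried by WT replicate 2. Elovl1, an elongase of very long fatty acids, was at 67.1, 61.4 and 64.7 CPM in WT and 62.9, 99.9 and 107 CPM in KO (0.48 ± 0.19), so that KO replicate 1 lay with WT. Gramd1a, which moves cholesterol from the plasma membrane to the endoplasmic reticulum, was at 215, 234 and 244 CPM in WT and 215, 170.5 and 179 CPM in KO (-0.30 ± 0.13). Lrp1, an endocytic receptor for lipoproteins, was at 12.4, 11.6 and 6.72 CPM in WT and 6.23, 3.97 and 8.03 CPM in KO (-0.79 ± 0.35). The adjusted p of all 6 was 0.834. WT replicate 3 and KO replicate 3 held the 2 highest values for 4 of the 22 sterol-handling genes (18.2%) and for 2 of the 30 fatty acid genes (6.67%).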

How the data were processed

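Read counts per gene were analysed for 6 libraries of sorted cDC1s, 3 WT and 3 KO. The table the authors deposited holds raw, unnormalized counts of 32285 Ensembl features. The submitters' processing notes list HISAT2 2.0.5, HTSeq and mm10. The sources used here do not name the annotation release, the strand setting or the handling of multi-mapped reads. Each column was assigned by the library code in the sample's description. GENCODE M21 named 32235 features (99.8%), and where a symbol had several features the one with the most counts was used.

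Genes were kept by edgeR's filterByExpr (12568), TMM-scaled, and compared between KO and WT by the quasi-likelihood test of edgeR 4.0.16 under R 4.3.3 (glmQLFit, robust, legacy = FALSE). P-values were adjusted by Benjamini-Hochberg, and 0.05 was the threshold. The SE is the size of the log2 fold change divided by the square root of F. The test was checked on simulated counts with 50 genes changed at each size. At an adjusted p under 0.05 it recovered 6% of those changed 1.5-fold, 62% at 2-fold and 92% at 4-fold. These shares describe the simulated counts and cannot be read as the power of the test in the real libraries. In the real libraries 0 genes passed, and Vps33b, at a log2 fold change of -1.28, had an adjusted p of 0.834 by edgeR. Mean centred log2 CPM used a prior count of 2 and subtracts the mean of the 6 libraries from each gene. RPKM was computed from CPM and the bases of all exons of a gene. Alternatives were other scalings and filters, DESeq2 1.42.0, limma 3.58.1, length and GC offsets, a block for replicate number, and leaving out libraries singly.

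The members and lists were chosen with earlier results of these data known, so lists are described by counts and medians and not tested. All 38 members are named. Values in every library are given for those with an unadjusted p under 0.05, with no overlap of the groups, or at either end of a role group, and for others chosen after their values were seen. Of the 56 other pathway genes, the 6 with an unadjusted p under 0.05 are named.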

Additional observations from a re-analysis of the deposited data

How the results depend on the processing

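The call of 0 genes was kept under RLE and upper-quartile scaling, limma-voom, a filter of 1 CPM in 3 libraries, a fit that was not robust, leaving antigen-receptor and haemoglobin genes out, and offsets for length and GC content. It was 3 genes without a filter, 10 with DESeq2 and 1 with limma-voom quality weights, and ranged from 0 to 7 when each library was left out in turn, with 7 without KO replicate 1 and 1 each without WT replicate 3 and KO replicate 2. The cause was not tested, and no member was called under any of these. The medians of the role groups and the difference between synthesis and the LXR and storage genes moved by less than the spread between libraries under every setting run. Replicate numbers are shared by the groups. Over all genes, same-numbered libraries deviated together by correlations of only 0.005, 0.028 and -0.001, so the main fit does not treat the numbers as pairs. That measure does not test pairing for the synthesis enzymes, most of which were highest in both replicate 3 libraries. With a block for replicate number, the SE fell from 0.21 to 0.10 for Hmgcs1, from 0.28 to 0.11 for Fdps and from 0.48 to 0.18 for Lss. It stayed at 0.21 for Tm7sf2. With the replicate block 0 genes passed, 4 members had an unadjusted p under 0.05 (Srebf1, Scd2, Cd36 and Cpt1a) and the difference between synthesis and the LXR and storage genes was 0.00.

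With each library left out in turn, the log2 fold changes of these members took both signs: Acsl1 (-0.06 to 0.07), Hmgcs1 (-0.35 to 0.12), Mvk (-0.35 to 0.10), Pmvk (-0.07 to 0.14), Mvd (-0.30 to 0.10), Idi1 (-0.20 to 0.08), Fdps (-0.28 to 0.25), Fdft1 (-0.38 to 0.12), Sqle (-0.21 to 0.17), Lss (-0.44 to 0.51), Cyp51 (-0.07 to 0.41), Tm7sf2 (-0.26 to 0.09), Msmo1 (-0.20 to 0.06), Nsdhl (-0.17 to 0.28), Hsd17b7 (-0.28 to 0.34), Sc5d (-0.02 to 0.44), Dhcr7 (-0.75 to 0.07), Srebf2 (-0.25 to 0.09), Stard4 (-0.28 to 0.07), Nr1h3 (-0.54 to 0.21), Abca1 (-0.74 to 2.15), Abcg1 (-0.15 to 0.24), Apoe (-0.40 to 0.67), Lpcat3 (-0.02 to 0.09), Lpl (-0.09 to 1.83) and Plin2 (-0.22 to 0.12). The log2 fold changes of Pltp ran from -0.74 to 0.00, and those of the remaining members kept their sign: Acat2 (-0.46 to -0.06), Ebp (0.10 to 0.31), Insig1 (-0.55 to -0.25), Mylip (0.05 to 0.12), Srebf1 (0.17 to 0.37), Fasn (-0.78 to -0.24), Scd1 (0.14 to 0.67), Scd2 (0.16 to 0.66), Cd36 (-0.63 to -0.30), Cpt1a (-0.37 to -0.17) and Pparg (-3.22 to -0.69). The reversals under other settings were Pmvk with limma-voom (-0.01) and with offsets (-0.05), Sqle with quality weights (0.01) and offsets (0.01), Msmo1 with quality weights (0.05) and offsets (0.01), Lss (-0.03), Abcg1 (-0.01) and Plin2 (0.01) with quality weights, Srebf2 with offsets (0.11) and Nr1h3 with limma-voom (0.03). None of these values passed a test in any setting. The counts limit what can be said of Abca1 and Pparg, with 0 reads in 2 libraries and 1 library. The difference between synthesis and the LXR and storage genes is computed from log2 CPM with no test, so DESeq2, limma-voom, quality weights and a fit that was not robust give it no other value. Abca1 and Pparg have no value under the filter of 1 CPM in 3 libraries.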
